A study of Mus musculus with 8 samples.

Results

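The genes described here serve the uptake, storage and use of fatty acids, and they were followed across 4 groups of cells sorted from mouse skin. The 10 were the nuclear receptors Pparg and Ppard, the uptake genes Lpl and Cd36, the fatty acid binding proteins Fabp4 and Fabp5, the lipid droplet genes Cidea, Cidec and Plin2, and the fuel switch gene Pdk4. They were chosen by name with the signals of these same arrays already known, so their values are given as a description and none of them is used as support. Every probe set that the platform annotation gives to 1 of these genes alone was taken, which made 18 probe sets for 10 genes, out of 45037 probe sets and 18193 genes measured. Where a gene had several probe sets, the brightest over all arrays stood for it.

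The arrays came from mice carrying a Tet-on Runx1 transgene (labelled Runx1 iTG) and from control mice (labelled WT), and the comparison asks what raised Runx1 does to hair follicle stem cells at rest. All mice, controls included, had doxycycline for 1 day at 1 g per kg of food. The treatment record gives the repression of H2BGFP as its purpose, and the sources used here do not name the promoter that drives the transgene. Skin showed telogen follicles, those between bouts of hair growth, and keratin 15-GFP positive, α6-integrin positive cells were split by the surface protein CD34. CD34-negative cells were labelled hair germ, the small cluster at the base of the resting follicle, and CD34-positive cells were labelled bulge, the seat of long-lived stem cells. The 4 groups of 2 arrays were Runx1 iTG labelled hair germ, WT labelled hair germ, Runx1 iTG bulge and WT bulge, at postnatal day 20 except for replicate 2 of both Runx1 iTG groups, which was day 21.

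PPARγ, the product of Pparg, binds DNA as a partner of RXR when it is loaded with fatty acids or their derivatives, and it is the receptor that drives the making of fat cells and the maturation of sebocytes, the lipid-filled cells of the sebaceous gland. Lpl encodes the lipase that frees fatty acids from lipoproteins, Cd36 a membrane protein that takes fatty acids in, and Fabp4 and Fabp5 the carriers that move them inside the cell. Cidea and Cidec enlarge lipid droplets by transfer of lipid between them, Plin2 coats them, and Pdk4 switches off pyruvate dehydrogenase, which turns a cell from glucose to fatty acids as fuel. Many of these genes are known PPAR targets in fat, liver or muscle.

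The labels were checked against marker genes. All signals are the deposited linear intensity after scaling the arrays to a common 75th percentile. Cd34 lay between 1.52 and 53.2 in the 4 labelled hair germ arrays, against 4902 to 11208 in the 4 bulge arrays, as the sort would give. Between populations 4.5% of all genes passed as higher and 5.26% as lower in Runx1 iTG labelled hair germ. In WT it was 3.14% and 3.79%. Of 6 hair germ markers, however, 3 passed as lower and 1 (Bmp4) as higher in labelled hair germ than in bulge in Runx1 iTG. In WT 4 passed as lower and 1 (Bmp4) as higher. The sebocyte list went the other way: 6 of its 7 measured genes passed as higher in labelled hair germ in each genotype. Its summed signal was 54020 to 54440 in Runx1 iTG labelled hair germ, 40650 to 49610 in WT labelled hair germ, 8812 to 11370 in Runx1 iTG bulge and 4567 to 5057 in WT bulge. Of the 9 measured upper follicle and epidermis markers, 2 (Plet1 and Lrig1) passed as higher and 5 as lower in labelled hair germ than in bulge in Runx1 iTG, and 2 as higher and 2 as lower in WT. That list summed to 39010 to 52150 in Runx1 iTG labelled hair germ, 66940 to 68420 in WT labelled hair germ, 73410 to 97950 in Runx1 iTG bulge and 95590 to 100300 in WT bulge, so its sum ran lower in labelled hair germ. The CD34-negative population is therefore called labelled hair germ throughout, and the part of sebaceous cells in the values below was not tested. In bulk samples more cells of a type and more RNA per cell cannot be told apart.

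The brightest Runx1 probe set averaged 12490 in Runx1 iTG and 492.1 in WT labelled hair germ, and 16330 in Runx1 iTG and 771.1 in WT bulge. Another Runx1 probe set ran the same way, with 1787 and 2453 in Runx1 iTG and 451 and 372 in WT labelled hair germ. The remaining Runx1 probe sets were lower in Runx1 iTG labelled hair germ, for example 242 and 626 against 1758 and 1378 in WT. In bulge these remaining probe sets were lower in Runx1 iTG or overlapped WT. The cause of this split was not tested. Between 69% and 77% of probe sets were above the background limit on each array, which is 31.1, the 95th percentile of 27 bacterial control probe sets. Replicate 1 of every group had low Xist (30.3 to 72.6) and high Eif2s3y signals and replicate 2 the reverse (Xist 9973 to 11103), so the spread within each group includes the sex of the mice.

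Promoters from 250 bases before to 50 bases after the annotated start were found in the RefSeq table (build GRCm38.p6) for 6 of the 10 genes. They were searched on both strands for the PPAR-RXR element DR1, a pair of AGGTCA copies spaced by 1 base, with up to 2 mismatches, which 3.86% of all 32851 such windows hold, and for the RUNX motifs TGTGGT (16.8% of windows) and TGCGGT (6.45%). The exact repeat is in 0.0396% of windows and in none of these genes. Printed here are 3 genes with a match. They are Cd36, whose genotypes stood apart in labelled hair germ, and Plin2 and Pdk4, which were high in both labelled hair germ groups. Pparg was also high in both, but its windows held no match and are not printed. Capitals mark the matches.
Cd36, chr5:17835847-17836146, minus strand: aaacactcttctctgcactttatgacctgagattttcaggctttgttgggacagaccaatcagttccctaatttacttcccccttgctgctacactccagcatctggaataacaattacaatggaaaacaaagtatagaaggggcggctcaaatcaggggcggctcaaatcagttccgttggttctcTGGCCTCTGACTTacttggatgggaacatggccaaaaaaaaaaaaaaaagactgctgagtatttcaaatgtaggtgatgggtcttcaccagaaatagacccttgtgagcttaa
Plin2, chr4:86670010-86670309, minus strand: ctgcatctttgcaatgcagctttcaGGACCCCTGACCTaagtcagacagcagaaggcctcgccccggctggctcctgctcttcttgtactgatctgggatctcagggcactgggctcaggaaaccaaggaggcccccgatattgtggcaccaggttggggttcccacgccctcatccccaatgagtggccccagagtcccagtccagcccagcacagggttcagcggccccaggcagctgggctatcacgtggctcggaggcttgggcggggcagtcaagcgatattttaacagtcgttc
Pdk4, chr6:5496229-5496528, minus strand: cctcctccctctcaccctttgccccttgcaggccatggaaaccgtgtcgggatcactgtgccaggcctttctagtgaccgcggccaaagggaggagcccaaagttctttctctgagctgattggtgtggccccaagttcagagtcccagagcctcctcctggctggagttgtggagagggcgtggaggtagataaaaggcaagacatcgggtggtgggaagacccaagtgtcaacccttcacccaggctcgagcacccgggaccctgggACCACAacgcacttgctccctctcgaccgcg
In Cd36 the repeat match TGGCCTCTGACTT, read on the opposite strand, starts 63 bases upstream of the start site. In Plin2 the match GGACCCCTGACCT, also on the opposite strand, starts 225 bases upstream. In Pdk4 the capitals are ACCACA, the reverse complement of TGTGGT, 19 bases downstream of the start, and 1 of the 2 Cidec windows holds the same letters 6 bases downstream. None of these letters was found in the 3 Pparg windows or the Ppard window. A match is a description of letters and not of binding.

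The receptor Pparg was bright in labelled hair germ and near or below background in bulge, in both genotypes (1420715_a_at, gene at chr6:115360879-115490404, GRCm38.p6). Its scaled signal was 4171 and 4079 in Runx1 iTG labelled hair germ, 1070 and 2070 in WT labelled hair germ, 30.5 and 32.1 in Runx1 iTG bulge, and 9.48 and 3.08 in WT bulge. No group overlapped its neighbour in that order, but 3 of the 4 bulge values lie below the background limit, so bulge levels are bounds rather than measurements. On the log2 scale, labelled hair germ minus bulge was 7.04 ± 0.59 in Runx1 iTG and 8.11 ± 0.59 in WT (SE from the fit, n = 2 arrays per group). Against the background limit the WT difference is at least 47.8-fold, and 131-fold is left in Runx1 iTG with the array under the limit raised to it.

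**Figure D1:**
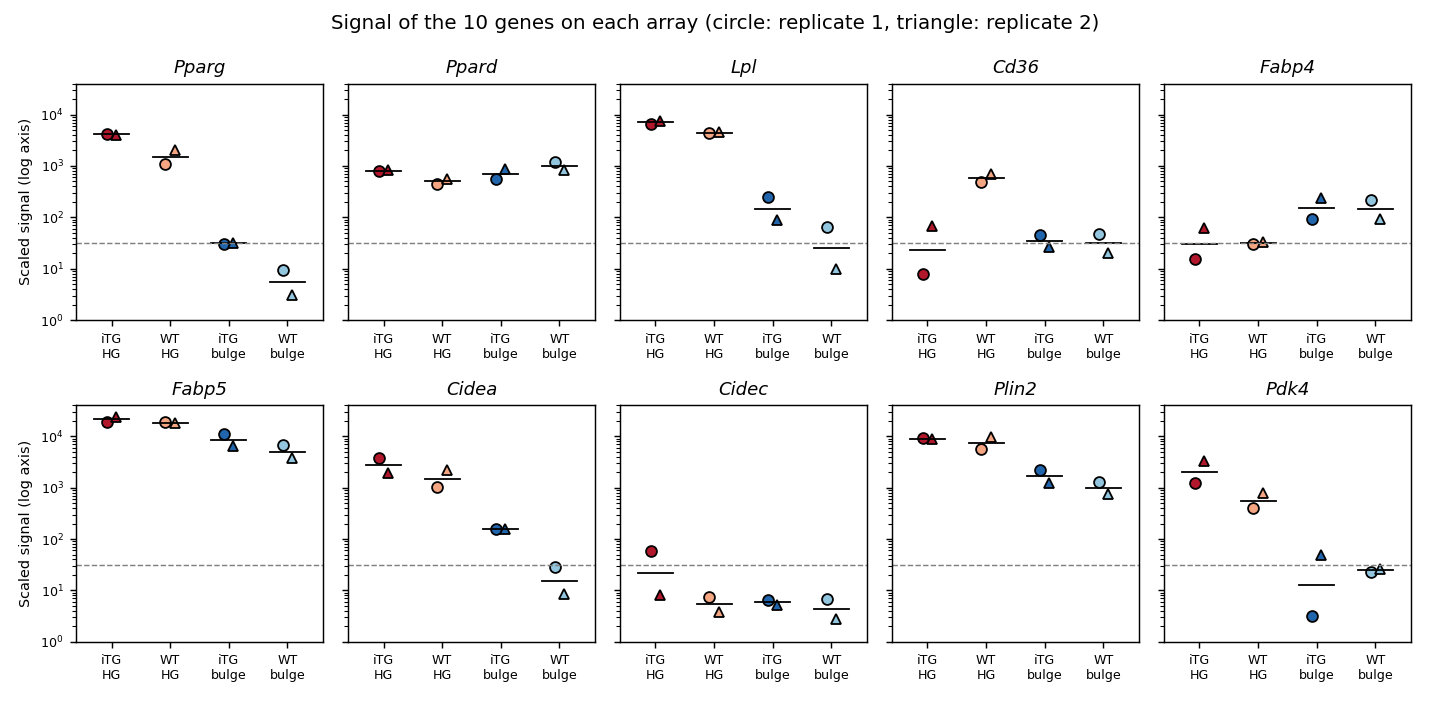
Scaled signal (log axis) of each of the 10 genes in the 4 groups. Circles are replicate 1, triangles replicate 2, bars the geometric mean of 2 arrays, HG labelled hair germ, and the dashed line the background limit of 31.1. Pparg, Lpl, Cidea, Fabp5, Plin2 and Pdk4 are higher in all 4 labelled hair germ arrays than in all 4 bulge arrays, Fabp4 is lower, and Cd36 stands high in WT labelled hair germ alone.

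Ppard, the PPAR of widest expression, did not follow Pparg (1425703_at, chr17:28232754-28301469). It read 787 and 833 in Runx1 iTG labelled hair germ, 455 and 551 in WT labelled hair germ, 556 and 858 in Runx1 iTG bulge, and 1187 and 836 in WT bulge. The 2 labelled hair germ groups did not overlap each other, and the 2 bulge groups did. On the log2 scale labelled hair germ minus bulge was 0.23 ± 0.31 in Runx1 iTG and -0.99 ± 0.31 in WT. Its dimmer probe set 1439797_at gave -0.52 ± 0.41 and -0.55 ± 0.41, so the probe sets disagree in sign in Runx1 iTG.

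Lpl had the pattern of Pparg (1415904_at, chr8:68880555-68906932). Its signal was 6631 and 7461 in Runx1 iTG labelled hair germ, 4293 and 4566 in WT labelled hair germ, 244 and 88.8 in Runx1 iTG bulge, and 64.1 and 9.90 in WT bulge. The 4 groups did not overlap, and the order from high to low was the same as for Pparg. The population difference (labelled hair germ minus bulge) was 5.58 ± 0.74 in Runx1 iTG and 7.46 ± 0.74 in WT, and the second probe set, 1431056_a_at, gave 5.53 ± 0.56 and 5.82 ± 0.56. In WT 99.1-fold is left for the first probe set with the bulge array under the background limit raised to it.

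Cd36 did not follow Lpl, the other uptake gene (1450883_a_at, chr5:17781690-17888959). It read 8.04 and 68.2 in Runx1 iTG labelled hair germ, 482 and 698 in WT labelled hair germ, 45.1 and 26.8 in Runx1 iTG bulge, and 48.0 and 20.02 in WT bulge. WT labelled hair germ was thus the one group clear of background, and the other 3 groups overlapped each other. The population difference was -0.57 ± 0.98 in Runx1 iTG and 4.23 ± 0.98 in WT.

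The binding proteins split. Fabp5, the carrier made in epidermis and sebaceous gland, was bright everywhere and highest in labelled hair germ (1416021_a_at, chr3:10012585-10016610). It read 19359 and 23641 in Runx1 iTG labelled hair germ, 18834 and 18005 in WT labelled hair germ, 11319 and 6443 in Runx1 iTG bulge, and 6730 and 3734 in WT bulge. Both labelled hair germ groups lay above both bulge groups, whose own values overlapped. For this probe set the population difference was 1.32 ± 0.33 in Runx1 iTG and 1.88 ± 0.33 in WT, and 2.55 ± 0.39 and 2.72 ± 0.39 by probe set 1416022_at. Fabp5 has close copies in the mouse genome, whose signal these probe sets may not tell apart.

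Fabp4, the carrier of fat cells, capillary endothelium and macrophages, ran the opposite way at low signal (1417023_a_at, chr3:10204342-10208616). It read 15.3 and 60.7 in Runx1 iTG labelled hair germ, 29.7 and 33.8 in WT labelled hair germ, 93.1 and 242 in Runx1 iTG bulge, and 219 and 94.3 in WT bulge. All 4 bulge arrays lay above all 4 labelled hair germ arrays. The population difference was -2.30 ± 0.84 in Runx1 iTG and -2.18 ± 0.84 in WT. Probe set 1451263_a_at gave -3.92 ± 1.5 and -4.24 ± 1.5, 1424155_at gave -0.57 ± 0.83 and -1.51 ± 0.83, and the dimmest, 1425809_at, gave 1.03 ± 1.17 and -1.36 ± 1.17, so the probe sets disagree in Runx1 iTG. Probe set 1451263_a_at was below the background limit on 3 of the 4 labelled hair germ arrays, which leaves 4.55-fold in Runx1 iTG with the array under the limit raised to it and at least 4.83-fold in WT.

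Markers of cells that make Fabp4 were read beside it. The summed signal of the 5 measured adipocyte markers was 64.5 to 136 in Runx1 iTG labelled hair germ, 122 to 146 in WT labelled hair germ, 185 to 261 in Runx1 iTG bulge and 226 to 293 in WT bulge. Adipoq, a defining one, was at most 33.5 on any array. The 10 endothelial markers summed to 629 to 660 in Runx1 iTG labelled hair germ, 341 to 382 in WT labelled hair germ, 432 to 613 in Runx1 iTG bulge and 556 to 730 in WT bulge, and Pecam1 and Cdh5 were at most 77.4 and 41.3 on any array. The 10 macrophage and immune markers summed to 867 to 889 in Runx1 iTG labelled hair germ, 712 to 857 in WT labelled hair germ, 647 to 789 in Runx1 iTG bulge and 854 to 1126 in WT bulge. Summed adipocyte markers ran the way of Fabp4, and summed endothelial markers did so in WT only. The immune sums overlapped in WT and ran the other way in Runx1 iTG. Gene by gene, in WT 0 of 10 endothelial and 0 of 10 immune markers were higher in labelled hair germ (medians -0.84 and -1.06). In Runx1 iTG 4 of 10 in each list were higher (medians -0.50 and -0.19). Of the 5 adipocyte markers 1 was higher in Runx1 iTG and 1 in WT (medians -0.94 and -1.02). Over all genes 8310 of 18193 were higher in WT and 8542 in Runx1 iTG. None of these markers passed, and their part in the Fabp4 difference was not tested.

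Of the droplet genes, Cidea had the widest range across groups (1417956_at). It read 3850 and 1928 in Runx1 iTG labelled hair germ, 1029 and 2199 in WT labelled hair germ, 160.0 and 159 in Runx1 iTG bulge, and 28.0 and 8.42 in WT bulge. The labelled hair germ genotypes overlapped, while Runx1 iTG bulge lay between them and WT bulge, where both arrays were below the background limit. Between populations the difference was 4.10 ± 0.61 in Runx1 iTG and 6.61 ± 0.61 in WT, at least 48.3-fold in WT.

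Plin2, the droplet coat found in most cells, read 9217 and 8742 in Runx1 iTG labelled hair germ, 5660 and 9561 in WT labelled hair germ, 2241 and 1219 in Runx1 iTG bulge, and 1278 and 770 in WT bulge (1448318_at, chr4:86626910-86670217). The genotypes overlapped within each population and the populations did not. Between populations the difference was 2.44 ± 0.36 in Runx1 iTG and 2.89 ± 0.36 in WT. Cidec, the relative of Cidea typical of white fat, was above background on 1 array only (1452260_at, chr6:113424634-113435760). Its signals were 58.4 and 8.12 in Runx1 iTG labelled hair germ, 7.47 and 3.80 in WT labelled hair germ, 6.54 and 5.25 in Runx1 iTG bulge, and 6.86 and 2.80 in WT bulge. No fold is given for it.

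Pdk4 was likewise high in labelled hair germ and near background in bulge (1417273_at, chr6:5483351-5496278). It read 1210 and 3353 in Runx1 iTG labelled hair germ, 405 and 776 in WT labelled hair germ, 3.21 and 48.7 in Runx1 iTG bulge, and 23.3 and 25.8 in WT bulge. The labelled hair germ genotypes did not overlap, and the bulge genotypes did. The population difference was 7.33 ± 1.07 in Runx1 iTG and 4.51 ± 1.07 in WT. This is at least 18-fold in WT, and 51.7-fold is left in Runx1 iTG with the array under the background limit raised to it.

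**Figure D2:**
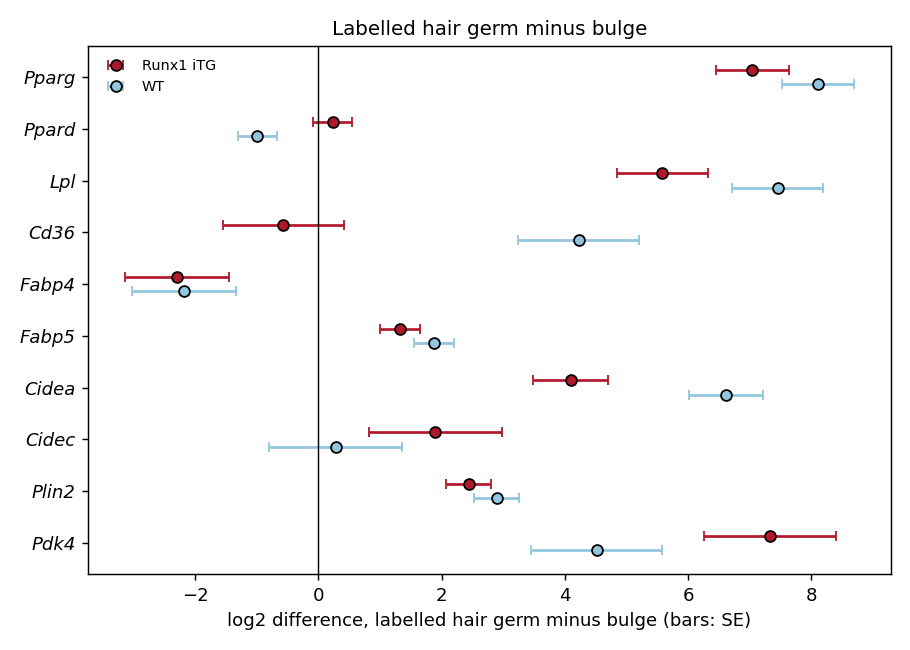
Difference in log2 signal, labelled hair germ minus bulge, of each gene in Runx1 iTG (red) and WT (light blue), with bars of 1 SE from the fit over all 8 arrays. Pparg, Lpl, Fabp5, Cidea, Plin2 and Pdk4 lie to the right of 0 in both genotypes, Cd36 does so in WT alone, and Fabp4 lies to the left.

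In the fit across all 18193 genes (limma, Benjamini-Hochberg adjusted p under 0.05), 6 of the 10 genes passed for labelled hair germ minus bulge in Runx1 iTG, against 9.76% of all genes (4.5% higher and 5.26% lower), and 7 passed in WT, against 6.93% (3.14% higher and 3.79% lower). All of these were higher in labelled hair germ. Averaged over genotypes 6 passed as higher and Fabp4 as lower, against 18.3% of all genes (9.17% higher and 9.11% lower). The Fabp4 call held in 6 of the 17 alternatives run. The genes had been picked with these contrasts known, so nothing is read from these counts. Fewer passed in Runx1 iTG with the day 20 arrays alone. Those leave 1 array in each Runx1 iTG group, assumed to vary like the WT arrays. In WT fewer passed without WT bulge replicate 2 or without either WT labelled hair germ array. Calls over all genes fell in these fits too. Groups did not overlap for 8 of the 10 genes in Runx1 iTG, against 51.6% of all genes and for 9 in WT, against 51.8%. All 4 labelled hair germ arrays stood clear of all 4 bulge arrays for 7 genes, against 22.4% of all genes. Taking replicate 1 and replicate 2 separately, the sign was the same for all 10 genes in WT. In Runx1 iTG it was so for 8, and Ppard and Cd36 turned. No share over all genes was computed for these 2 counts.

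Genes of the same pathways outside the 10 were then read from 4 lists, which had been drawn up with earlier results of these arrays known. Of 102 genes listed 90 were measured. In labelled hair germ minus bulge 31 passed as higher and 3 as lower in Runx1 iTG, against 4.5% and 5.26% of all genes. In WT 21 passed as higher and 2 as lower, against 3.14% and 3.79% of all genes. In both genotypes 19 passed in the same direction, a count for which no share over all genes was computed. These counts depend on the fit: 9 passed in Runx1 iTG with the day 20 arrays alone (1 array in each Runx1 iTG group, its spread taken from the WT groups), 17 without replicate 1 of Runx1 iTG labelled hair germ, and 6 in WT without WT bulge replicate 2. Without the intensity trend 11 passed in Runx1 iTG and 6 in WT. The median difference over the 90 genes was 0.71 in Runx1 iTG and 0.65 in WT, against -0.06 and -0.08 over all genes. The lists differed in this. In the same order the median was 0.07 and -0.14 for uptake and binding genes and 0.38 and 0.06 for droplet and lipolysis genes. It was 0.32 in each genotype for receptors and coregulators, and highest for the oxidation list, given next. Labelled hair germ arrays carry high sebocyte markers beside these genes, as given above, and the part of such cells was not tested.

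The oxidation list moved most. Of its 32 measured genes 18 rose and none fell in Runx1 iTG, against 4.5% higher and 5.26% lower over all genes. In WT 10 rose and 1 fell, against 3.14% higher and 3.79% lower. The medians were 1.23 in Runx1 iTG and 0.97 in WT on the log2 scale. In Runx1 iTG the 8 with the smallest p were Acacb, Slc25a20, Dlat, Decr1, Dld, Acadvl, Etfb and Acadl. Acacb, which makes the malonyl-CoA that restrains fatty acid entry into mitochondria, averaged 928.1 in labelled hair germ and 196.2 in bulge of Runx1 iTG (log2 difference 2.24 ± 0.31, adjusted p = 0.00196), and 1281 and 113.0 in WT (3.50 ± 0.31, adjusted p = 0.00026). Slc25a20, the carnitine carrier that brings fatty acids into mitochondria, rose by 1.70 ± 0.24 in Runx1 iTG (adjusted p = 0.00216) and 2.03 ± 0.24 in WT (adjusted p = 0.000954). Decr1, needed to oxidise unsaturated fatty acids, rose by 2.16 ± 0.35 and 2.43 ± 0.35 in the same order (adjusted p = 0.00431 and 0.00307).

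Subunits of pyruvate dehydrogenase, the enzyme that PDK4 inactivates, stood among the genes that rose. Dlat, its acetyl-transferring subunit, differed by 2.26 ± 0.33 in Runx1 iTG (adjusted p = 0.00267) and 1.65 ± 0.33 in WT (adjusted p = 0.017). In WT the other named genes were Etfb, Pdhb, Hadh and Pdha1, with differences of 0.98 to 1.39 and adjusted p of 0.00309 to 0.0278. In Runx1 iTG Dld, Acadvl, Etfb and Acadl differed by 1.15 to 1.71, with adjusted p of 0.00439 to 0.00633. Pdk2, another pyruvate dehydrogenase kinase, was the 1 gene of the list that fell in WT, by 1.19 on the log2 scale, and it was named after its value was seen.

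**Figure D3:**
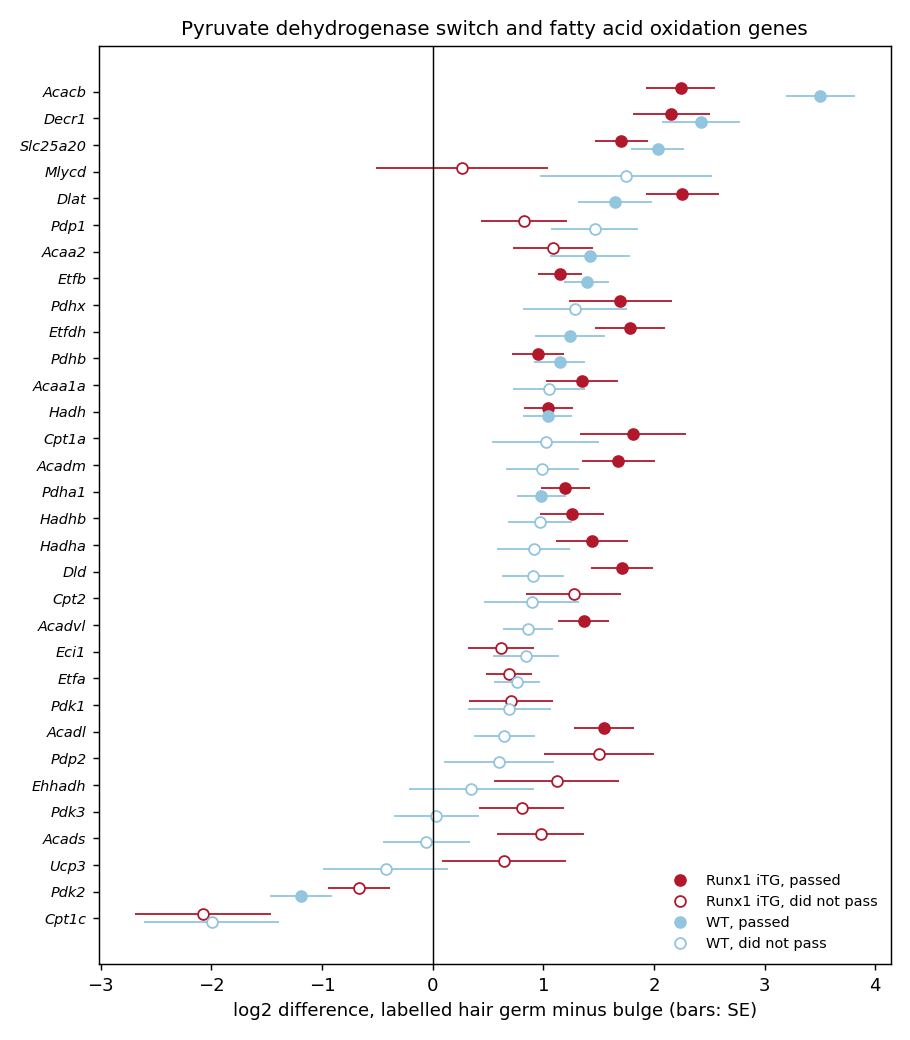
Log2 difference, labelled hair germ minus bulge, of the 32 measured genes of the pyruvate dehydrogenase and fatty acid oxidation list in Runx1 iTG (red) and WT (light blue), with bars of 1 SE. Filled points passed the adjusted p of 0.05, 18 in Runx1 iTG and 11 in WT, and most points lie to the right of 0.

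Among receptors and partners, Ppara, the PPAR that drives fatty acid oxidation in liver, rose. Its signal was 2878 and 2946 in Runx1 iTG labelled hair germ against 459 and 305 in Runx1 iTG bulge, and 2916 and 2932 in WT labelled hair germ against 286 and 252 in WT bulge. The difference was 2.96 ± 0.27 in Runx1 iTG (adjusted p = 0.000261) and 3.45 ± 0.27 in WT (adjusted p = 0.000153). Cebpa and Cebpb, factors that act with PPARγ in fat cells, rose in both genotypes by 1.45 to 2.40 (adjusted p of 0.00109 to 0.00386). Nr1h3, the oxysterol receptor LXRα, passed in Runx1 iTG (3.35 ± 0.82, adjusted p = 0.0303). These were the 4 of 16 measured receptors and coregulators that passed in Runx1 iTG and 3 of 16 in WT, and none passed as lower. Over all genes 4.5% passed as higher in Runx1 iTG and 3.14% in WT.

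Of the 22 measured uptake and binding genes 5 rose and 2 fell in Runx1 iTG, against 4.5% and 5.26% of all genes. In WT 5 rose and 1 fell, against 3.14% and 3.79%. The largest rise by size in both was in Angptl4, a secreted inhibitor of lipoprotein lipase and a PPAR target, with 4.05 ± 0.80 in Runx1 iTG (adjusted p = 0.0114) and 3.59 ± 0.80 in WT (adjusted p = 0.0252). Acsl4, which activates long-chain fatty acids, differed by 3.41 ± 0.31 and 3.40 ± 0.31 (adjusted p = 0.000261 in Runx1 iTG and 0.000274 in WT). Acsl5 also rose in both, Got2 and Scarb1 in Runx1 iTG, and Acsl3 and Slc27a4 in WT, by 1.06 to 1.60 in all (adjusted p of 0.0121 to 0.0483). Slc27a3, an acyl-CoA synthetase of the transporter family, fell by 1.55 in Runx1 iTG and 2.06 in WT (SE 0.31, adjusted p = 0.0133 and 0.00416), and Lrp1, a lipoprotein receptor, fell by 1.41 in Runx1 iTG (adjusted p = 0.0272).

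Of 20 droplet and lipolysis genes 4 rose and 1 fell in Runx1 iTG, against 4.5% and 5.26% of all genes. In WT 3 rose, against 3.14%. Mgll, the lipase of the last step of triglyceride breakdown, differed by 2.77 ± 0.37 in Runx1 iTG and 2.75 ± 0.37 in WT (adjusted p = 0.00166 and 0.00214). Dgat2, which makes triglyceride, differed by 2.51 ± 0.24 and 1.18 ± 0.24 (adjusted p = 0.00032 in Runx1 iTG and 0.017 in WT), and Fitm2, which helps droplets form, by 1.96 ± 0.27 and 1.59 ± 0.27 (adjusted p = 0.00197 and 0.00771). Pnpla2, the first lipase of triglyceride breakdown, rose in Runx1 iTG by 1.67 ± 0.30 (adjusted p = 0.00759). Hsd17b11, a droplet-bound dehydrogenase, fell in Runx1 iTG by 3.58 on the log2 scale (SE 0.73, adjusted p = 0.0133). Its signals were 42.8 and 229 in labelled hair germ and 765 and 1821 in bulge of that genotype.

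Averaged over genotypes, 40 pathway genes rose and 5 fell, against 9.17% higher and 9.11% lower over all genes. Among the population contrasts 4 genes were named in this one only. Of these, Ppargc1b, Bscl2 and Dgat1 had differences of 0.83 to 1.42 (adjusted p of 0.0138 to 0.0301), all higher in labelled hair germ. Etfdh, which passes electrons from fatty acid oxidation to the respiratory chain, was the fourth (1.51 ± 0.22, adjusted p = 0.00137).

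The genotype comparison set Runx1 iTG against WT within each population. Replicate 2 of each Runx1 iTG group was from day 21 and every WT array from day 20. For that replicate age and genotype cannot be told apart. In bulge Pparg differed by 2.53 ± 0.59, Lpl by 2.55 ± 0.74 and Cidea by 3.38 ± 0.61 on the log2 scale. All 3 are dim in WT bulge. They were the 3 of 10 genes whose groups did not overlap, against 33.8% of all genes. Pparg is at background in both bulge groups, so its value carries no fold, whereas Cidea was at least 5.12-fold higher. Lpl was 5.84-fold higher by group means, and 3.29-fold with the WT array under the background limit raised to it. The second Lpl probe set, 1431056_a_at, differed less, by 1.26 ± 0.56 on the log2 scale, or at least 2.04-fold. Fabp5 and Plin2 differed by 0.77 ± 0.33 and 0.74 ± 0.36, with the arrays of 1 genotype overlapping those of the other. The sebocyte markers summed to 8812 to 11370 in Runx1 iTG bulge and 4567 to 5057 in WT bulge. Scd1 made up much of that sum (8700 and 5769 in Runx1 iTG, 3255 and 2595 in WT). Of the 7 measured markers 5 were higher in Runx1 iTG bulge, and none passed. Krt79 (-0.04 ± 0.28) and Mc5r (-0.36 ± 0.76) were not higher. The part of such cells was not tested. Cd36, Fabp4, Ppard and Pdk4 differed by 0.16 ± 0.98, 0.06 ± 0.84, -0.53 ± 0.31 and -0.97 ± 1.07, all with overlap.

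In labelled hair germ Pparg differed by 1.47 ± 0.59, Pdk4 by 1.84 ± 1.07, Ppard by 0.69 ± 0.31 and Lpl by 0.67 ± 0.74, none with overlap between genotypes. Cidea (0.86 ± 0.61), Plin2 (0.29 ± 0.36) and Fabp4 (-0.06 ± 0.84) overlapped. Fabp5 differed by 0.22 ± 0.33 without overlap. The second probe sets of Fabp5 (1416022_at, 0.65 ± 0.39) and Lpl (1431056_a_at, 0.97 ± 0.56) did not overlap. The dim Cidec did not overlap either, but its nearest arrays (8.12 in Runx1 iTG and 7.47 in WT) both lay below the background limit. With Cd36, and with Cidec counted, genotypes did not overlap for 7 of the 10 genes, against 35.7% of all genes. The second Ppard probe set read -0.20 ± 0.41, with the opposite sign to the first. Between the same arrays the sebocyte markers summed to 54020 to 54440 in Runx1 iTG and 40650 to 49610 in WT, the upper follicle and epidermis markers to 39010 to 52150 and 66940 to 68420, and the 10 bulge markers to 19500 to 27660 and 31720 to 36880. None of these sums overlapped between genotypes, and their part in the differences was not tested.

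**Figure D4:**
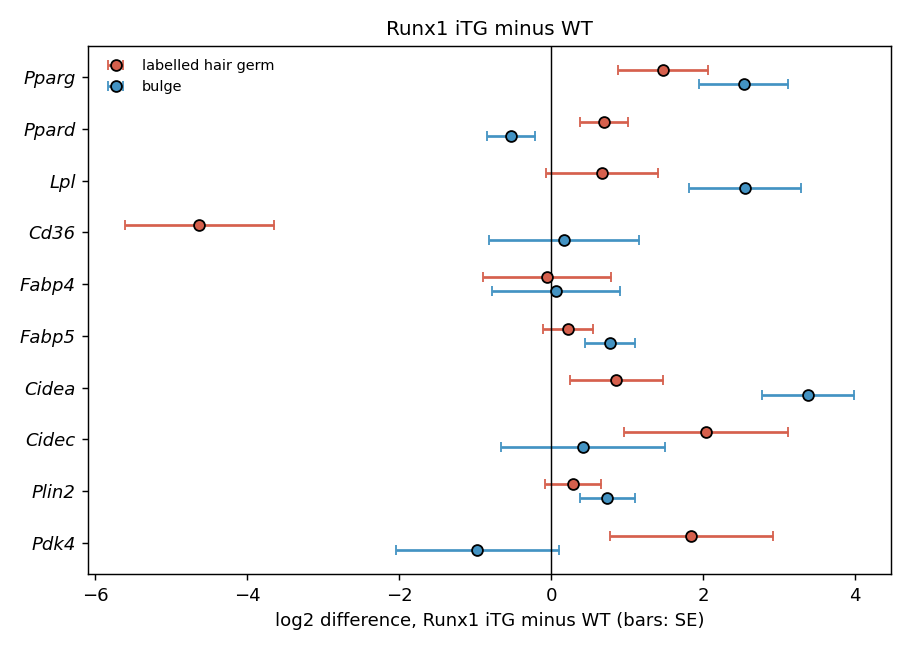
Difference in log2 signal, Runx1 iTG minus WT, of each gene in labelled hair germ (red) and bulge (blue), with bars of 1 SE. Cd36 in labelled hair germ lies farthest from 0 (-4.63), and Cidea, Lpl and Pparg lie highest in bulge.

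Cd36 had the widest genotype difference of the 10 genes. Runx1 iTG labelled hair germ averaged 23.4 and WT labelled hair germ 580.2, a log2 difference of -4.63 ± 0.98 (24.8-fold), or 12.6-fold with the array under the background limit raised to it. The other probe sets ran the same way, with -2.84 ± 1.14 for 1450884_at and -3.81 ± 1.13 for 1423166_at. Both were below the background limit in Runx1 iTG labelled hair germ, so they were at least 3.06-fold and 4.68-fold lower there, in that order. Probe set 1450884_at read 7.46 and 23.7 in Runx1 iTG labelled hair germ and 101 and 89.9 in WT labelled hair germ, and 1423166_at read 28.3 and 3.84 against 122 and 174. By replicate the difference was -5.91 and -3.36. The change of the genotype difference between populations was -4.80 ± 1.39 for Cd36, and it did not pass in the fit over all genes.

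**Figure D5:**
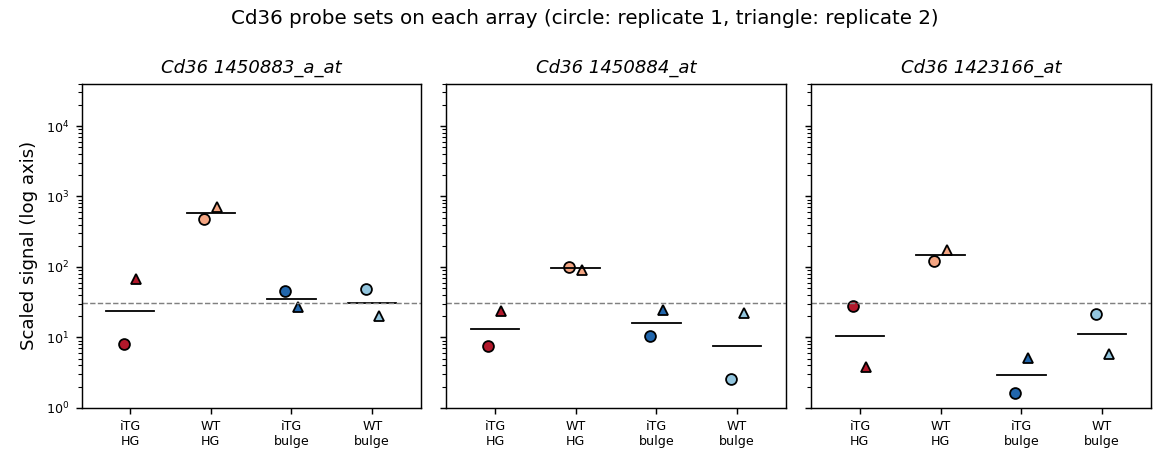
Scaled signal (log axis) of the 3 Cd36 probe sets in the 4 groups, circles replicate 1 and triangles replicate 2, with bars at the geometric mean and a dashed line at the background limit of 31.1. In each probe set both WT labelled hair germ arrays stand above every other array.

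None of the 10 genes passed the adjusted threshold between genotypes in limma, against 0.022% of all genes in bulge, 0.0275% in labelled hair germ, 0.0495% averaged over populations and 0% for the change between populations. At an unadjusted p under 0.05 there were 4 of the 10 in bulge, against 5.96% of all genes, 2 in labelled hair germ, against 6.78%, 4 averaged, against 8%, and 3 for the change, against 4.61%. The genes were picked with these arrays known, so nothing is read from these counts. Taken by replicate, the sign held for 5 of the 10 genes in bulge and 7 in labelled hair germ. For these counts no share over all genes was computed. With 2 arrays per group the median SE of a difference over all genes was 0.515 on the log2 scale.

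None of the 90 pathway genes passed between genotypes either. At an unadjusted p under 0.05 there were 5 in bulge (5.56%, against 5.96% of all genes), 10 in labelled hair germ (11.1%, against 6.78%), 15 averaged (16.7%, against 8%) and 7 for the change between populations (7.78%, against 4.61%). Of the 32 oxidation genes 29 were on the higher side in Runx1 iTG labelled hair germ, against 9591 of all 18193 genes. The median difference was 0.47, against 0.03 over all genes. In bulge 21 were so, against 9459 of all genes, with a median of 0.22 against 0.02. The list was drawn up with earlier results of these arrays known, so nothing is read from these counts. Sebocyte marker sums were also higher in Runx1 iTG in both populations, as given above, and the part of such cells was not tested. The genes with the smallest p in labelled hair germ were Acadl, Acadm and Pdk3, at 0.90 to 1.14, and in bulge Slc25a20, Acacb and Mlycd, at 0.79 to 1.68. Acadm, the medium-chain dehydrogenase, read 3754 and 5466 in Runx1 iTG and 1598 and 3099 in WT labelled hair germ (adjusted p = 0.545).

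The remaining genes named by smallest p in the genotype contrasts also did not pass. In labelled hair germ they were Rxra, the PPAR partner (-0.56 ± 0.20), Ppargc1a (1.43 ± 0.58) and Ncoa3 (-0.49 ± 0.27) among receptors and coregulators, Slc27a4 (-1.08 ± 0.35), Dbi (-0.80 ± 0.34) and Acsl5 (0.53 ± 0.27) among uptake genes, and Dgat2 (0.79 ± 0.24), Pnpla2 (0.68 ± 0.30) and Hsd17b11 (-1.59 ± 0.73) among droplet genes. In bulge they were Cebpb, Ncoa1 and Ppara (0.48 to 0.75), Acsl5 (0.75 ± 0.27), Dbi (-0.77 ± 0.34) and Acsl3 (0.45 ± 0.23), and Plin5, Dgat2 and Plin3 (-2.25 to -0.53). Dgat2, higher in Runx1 iTG in labelled hair germ and lower in bulge, had a change between populations of 1.32 ± 0.34, with an adjusted p of 1 as for every pathway gene in that contrast.

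For that change between populations the other genes named were Nr1h3 (2.59 ± 1.16), Rxra and Ppargc1a among receptors and coregulators, Slc27a4 (-1.47 ± 0.49), Acsl3 and Scarb1 among uptake genes, Rab18 and Pnpla2 among droplet genes, and Acacb (-1.26 ± 0.44), Acadl and Dld among oxidation genes. Averaged over populations, the genotype contrast named Cebpb, Prdm16 and Ppargc1a (0.63 to 1.29), Acsl5, Acsl4 and Dbi (-0.78 to 0.64), Bscl2, Lipa and Cideb (-1.05 to 0.51), and Slc25a20, Acadm and Pdk3 (0.63 to 0.75). Their adjusted p lay between 0.304 and 0.659.

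Likeness of pattern was taken as the root-mean-square difference of log2 signals over the 8 arrays after each gene was centred on its mean, over 14204 genes above background on at least 4 arrays. The gene most like Pparg was Lpl (0.792), followed by Avpr1a (1.117) and Cidea (1.195). Cidea was most like Ces1d (0.588), then Tmem45b (0.792) and Lpl (0.875). Pdk4 was nearest to Clmp (0.687), Acoxl (1.11) and Tgm2 (1.127), and Cd36 to Il33 (0.879), Dnajc6 (1.162) and Il13ra2 (1.197). Genes with a smaller range across groups had nearer neighbours, as Plin2 with Ldhb (0.22), Pde4b (0.254) and Cebpb (0.264), Fabp5 with Cux1 (0.125), Rmdn3 (0.133) and Fmc1 (0.167), and Fabp4 with Cplane2 (0.278), Bmp6 (0.355) and Rhoc (0.388). These values describe 8 arrays that share their sort and scaling.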

How the data were processed

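Each of the 8 samples, 2 per group, was hybridised to an Affymetrix Mouse Genome 430 2.0 array after small amounts of total RNA had been amplified with a NuGEN kit, per the labels' protocols. The deposited values are the authors' linear intensity per probe set, scaled by them to a mean of 500 on every array once 2% of values at either end are trimmed, as the values show. The sources used here do not name the summarising program.

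From these intensities 64 control probe sets were removed, arrays were scaled to a common 75th percentile, values below the lowest 5th percentile of any array (2.42) were set to that floor, which applied to 3.48% of values, before taking log2. The platform annotation gave 34945 probe sets 1 symbol, 932 several and 9160 none. A limma 3.58.1 model with 1 mean per group used all 8 arrays (R 4.3.3, intensity trend, 7 contrasts, total df 9.87), with Benjamini-Hochberg adjustment over 18193 genes. Every adjusted p comes from this fit, except those given for the alternatives at the end. The fit was tested on simulated data. Background was 31.1, the 95th percentile of 27 bacterial control probe sets, a limit set after the data were seen. "At least N-fold" sets the brighter mean against it. The precision of every value is limited by the number of arrays. Replicates are samples so labelled; the labels do not say whether both populations of a number came from 1 animal, so p-values measure the spread between these samples.

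The 10 genes, the pathway and marker lists and the tests were chosen with earlier results of these data known. Named genes are the 10, plus, per list and contrast, up to 8 past the threshold by unadjusted p, or up to 3 above background where none passed, plus the 3 nearest patterns for each of the 10 that spans over 1 on the log2 scale. Alternatives covered normalization, low values, dim genes, the prior trend, probe set averaging, age, the arrays fitted, a replicate block and leaving out each array.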

Additional observations from a re-analysis of the deposited data

How the results depend on the processing

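Of the differences past the threshold among the 10 genes, 353 alternative values were computed. In 310 of them the call held, in 43 it was lost, and in none did the sign change. Pparg kept its calls in all alternatives run. In labelled hair germ minus bulge, Fabp4 (averaged) kept its call in 6 of 17, Fabp5 in Runx1 iTG in 9 of 18, and Cd36 and Pdk4 in WT in 11 of 18 each. Of 870 values not past the threshold, 5 passed newly and 48 changed sign. The count of the 10 genes past the threshold was 0 between genotypes, except that Cd36 in labelled hair germ passed with an offset of 50 in place of the floor (count 1, log2 difference -2.93, adjusted p = 0.049). Its adjusted p was otherwise 0.11 to 0.856.

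For labelled hair germ minus bulge in Runx1 iTG, day 20 arrays alone gave 2 of the 10 genes and 9 pathway genes, against 6 and 34. That setting leaves 1 array in each Runx1 iTG group, assumed to vary like the WT arrays. A floor at the background limit, added after the data were seen, gave 4 and 15, no intensity trend 5 and 11, only the groups compared 5 and 20, and 24 pathway genes passed with probe sets averaged. Leaving out 1 array gave 5 to 6 and 17 to 30, with 17 and 21 without Runx1 iTG labelled hair germ replicate 1 and 2 and 22 without Runx1 iTG bulge replicate 1. In WT, against 7 and 23, no trend gave 4 and 6, day 20 arrays 7 and 13, the background floor 6 and 11, and only the groups compared 7 and 13. Leaving out 1 array gave 4 to 6 and 6 to 24. The count of 4 came without WT bulge replicate 2 or either WT labelled hair germ array. Pathway counts were 12 and 6 without WT bulge replicate 1 and 2 and 9 without WT labelled hair germ replicate 2. Averaged over genotypes, against 45 pathway genes, day 20 arrays gave 28 and no trend 30. Calls over all genes also shifted. In Runx1 iTG they were 1775 in the main fit, 708 without the trend, 925 with the background floor and 1769 with probe sets averaged. In WT they were 1261 in the main fit, 411 without the trend and 627 with the background floor. They also fell in the day 20 and left-out fits. Fewer arrays enter the day 20, group-limited and left-out fits. The cause of the other shifts was not tested.

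With replicate number as a block, 6 and 34 passed in Runx1 iTG, 7 and 25 in WT and 7 and 46 averaged, with 0 between genotypes. The block changed no call of the 10 genes. Same-numbered arrays did not deviate together in every pair of groups (correlations of -0.067 to 0.191 over 11783 genes), so the numbers were not taken as pairs.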
